A study of Homo sapiens with 38 samples.

Results

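The genes described here encode the core of ER-associated degradation, the route by which misfolded proteins leave the endoplasmic reticulum and reach the proteasome. They were chosen by name, as 9 genes: HERPUD1, SEL1L, SYVN1, EDEM1, EDEM2, OS9, DERL1, DERL2 and DERL3. The array annotation assigned 20 probe sets to them, of which 19 named 1 gene and 15 passed the filter on low signal. That left 7 of the 9 genes measured, among 11456 genes in the series. DERL3 had 3 probe sets whose highest signals on any array were 42.3, 38.8 and 13.2, under the filter of 45.5, so no change is given for it. SYVN1 was represented by 1 probe set that the annotation also gives to the microRNA gene MIR6751, so its values are reported as those of a shared probe set and stay out of the counts.

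In this pathway EDEM1 and EDEM2 trim mannose from the sugar chains of misfolded glycoproteins, and the lectin OS9 binds the trimmed chains and hands the protein to a membrane complex. SEL1L is the adaptor that holds this complex together around the ubiquitin ligase SYVN1 (HRD1), HERPUD1 is a short-lived ubiquitin-like membrane protein of the same complex, and the derlins DERL1, DERL2 and DERL3 help to move proteins out through the membrane. Several of these genes are known targets of the unfolded protein response, whose transcription factors ATF6, XBP1 and ATF4 act when proteins accumulate in the endoplasmic reticulum.

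HERPUD1 (chr16:56932142-56944864, plus strand) and SEL1L (chr14:81471547-81533853, minus strand) carried the largest increases, and their promoters are shown with that of EDEM1 (chr3:5187707-5219958, plus strand), a member with a smaller change. Each line gives the 250 bases before the RefSeq gene start in GRCh38.p14, from 5′ to 3′ on the gene's strand. Capitals mark CCAAT and CCACG on either strand, the pieces from which the ER stress response elements are built.
HERPUD1: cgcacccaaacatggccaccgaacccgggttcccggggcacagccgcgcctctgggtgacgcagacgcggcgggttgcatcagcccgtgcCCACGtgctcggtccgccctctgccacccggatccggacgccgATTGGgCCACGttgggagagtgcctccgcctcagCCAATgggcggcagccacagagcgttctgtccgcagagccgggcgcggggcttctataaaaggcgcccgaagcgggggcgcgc
SEL1L: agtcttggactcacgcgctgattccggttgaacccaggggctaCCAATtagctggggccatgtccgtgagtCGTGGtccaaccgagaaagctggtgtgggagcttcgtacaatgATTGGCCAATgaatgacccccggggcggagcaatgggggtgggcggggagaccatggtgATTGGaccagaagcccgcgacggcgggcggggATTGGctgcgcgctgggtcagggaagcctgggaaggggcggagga
EDEM1: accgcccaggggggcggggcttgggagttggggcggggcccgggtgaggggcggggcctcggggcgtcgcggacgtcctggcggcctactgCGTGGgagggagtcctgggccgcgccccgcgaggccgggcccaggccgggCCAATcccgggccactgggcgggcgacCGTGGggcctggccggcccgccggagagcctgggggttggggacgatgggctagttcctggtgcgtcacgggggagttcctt
These windows are chr16:56931892-56932141, chr14:81533854-81534103 and chr3:5187457-5187706. Promoters of 7 of the 9 genes, SYVN1 included, were matched in the RefSeq table of 35116 promoters. They were searched on both strands, from 250 bases before the start to 50 after it, and so were all promoters. The element ERSE-II, spelled ATTGGNCCACG, was found in HERPUD1 at -117 to -107 from the start as ATTGGGCCACG. None of the other 6 windows held it, and 0.0541% of all promoters did. The full ERSE, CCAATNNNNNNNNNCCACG, was found in 0 of 7, against 0.0769% of all promoters. With its last base left free it matched HERPUD1 at -83 to -65, as CCAATGGGCGGCAGCCACA, a form present in 0.316% of all promoters. SEL1L and EDEM1 held only the separate pieces, CCAAT and CCACG, each found in 5 of 7 windows, against 34.6% and 38.1% of all promoters. ERSE-II contains CCACG and, on the other strand, CCAAT, so these counts overlap. The DERL2 window, chr17:5486179-5486428 on the minus strand, held CCAAT but lies within the gene bounds used for the probe sets, which end at 5486817. The core TGACGTGG, known as the unfolded protein response element, was found in 0 of 7 and in 0.729% of all promoters. HERPUD1 also held TGATGNAAN, a composite site of the C/EBP and ATF families, at -177 to -169, against 3.61% of all promoters. A match describes letters in the window and is not a measured binding site.

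The samples were 38 arrays of 2 human cancer cell lines, HT-1080 from a fibrosarcoma and HT-29 from a colorectal adenocarcinoma, and of their rho0 derivatives, which lack mitochondrial DNA and so cannot respire. Unstressed controls numbered 6 for HT-1080, 2 for its rho0 cells, 3 for HT-29 and 1 for HT-29 rho0 cells. The stresses were 2DG (2-deoxyglucose, which blocks glycolysis and glycosylation; 3 HT-1080 arrays), GS (glucose starvation; 2 HT-1080 and 3 HT-29 arrays) and TM (tunicamycin, which blocks N-glycosylation directly; 1 HT-1080 array). With 2DG, HT-1080 cells received 1 of 5 inhibitors of respiration. Of these 3 were biguanides: 10 mM metformin (Met), 300 µM buformin (Bu) or 100 µM phenformin (Phen). The others were 100 nM rotenone (Rot), which blocks complex I, and 10 ng/ml antimycin A (AA), which blocks complex III. VST (versipelostatin, 3 µM) was combined with 2DG or GS, and Rot or AA with GS or TM. Each of these combinations, and each stress in rho0 cells, was measured on 1 array, and GS with Rot on 2. Exposure lasted 18 h, except that the HT-29 rho0 GS array and its parental partner, HT-29 GS replicate 3, stood at 14 h because, per the labels, the longer exposure damaged the rho0 cells severely. The rho0 HT-1080 GS array, the GS with AA array and 1 of the GS with Rot arrays included floating cells, per the labels. No array held a compound without stress. The description of each treated array names its control array, and every change below is the log2 difference from that control unless a fitted difference is named.

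Signals are on a scale where each array has the same trimmed mean of 114, after an offset of 5.69 was added before taking logarithms. The arrays matched their labels, by means over all arrays, treated and control. Of the markers, 8 of 8 colon epithelial genes were higher in HT-29 and 10 of 10 mesenchymal genes in HT-1080. The 7 mitochondrially encoded transcripts averaged 0.599 to 6.15 over rho0 arrays against 390 to 10008 over parental arrays. Before scaling, the 14 arrays on which 2DG or GS was combined with a compound or met rho0 cells stood apart. They had deposited trimmed means of 89.5 to 102, against 122 to 131 on the 8 with 2DG or GS alone, 113 to 125 on the 4 TM arrays and 110 to 136 on the 12 controls. Their ratio of 3′ to 5′ signal for ACTB, a sign of RNA quality, ran from 1.21 to 1.76, and that of the 8 stressed arrays from 1.04 to 1.42. The part of either in the results below was not tested, beyond the values with the deposited scaling. With that scaling more genes were called in all, in each comparison of these arrays with 2DG or GS alone. In the group fit a group of 1 array has no spread of its own. Its tests rest on the spread within the groups of several arrays, 2DG and GS in HT-1080 and GS in HT-29. The HT-29 group joins 14 h and 18 h arrays.

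Without stress, the members that differed between the lines were derlins, EDEM1 and OS9. DERL1 signals were 611 to 804 (median 754) in the 6 HT-1080 controls and 2863, 2523 and 2560 in the 3 HT-29 controls, with no overlap. The fitted difference was 1.85 (SE 0.102, limma adjusted p = 1.17e-09). OS9 was also higher in HT-29 by 0.39 (SE 0.146, limma adjusted p = 0.0307), a call lost without any one of control replicates 1, 2 and 3 of HT-1080 or 2 and 3 of HT-29 (adjusted p up to 0.11). DERL2 was lower by -0.70 (SE 0.131) and EDEM1 by -0.81 (SE 0.126). So 2 of 7 members were higher, where 27.4% of all genes were, and 2 were lower, where 32.4% were, both close to the share over all genes. The OS9 call was also lost with the mean of its probe sets (0.29, limma adjusted p = 0.0751). HERPUD1 averaged 760 ± 210 (SD, n = 6) in HT-1080 and 674 ± 224 (SD, n = 3) in HT-29, and SEL1L 284 ± 15.9 and 288 ± 26.5. HERPUD1 was thus far more variable between controls than SEL1L. In rho0 HT-1080 controls none of the 7 passed the test, against 6.15% of genes higher and 6.95% lower. In the single rho0 HT-29 control DERL1, at 1329, was lower by -0.99 (SE 0.166, limma adjusted p = 0.0038), where 3.98% of genes were lower, and fitted on HT-29 arrays alone its adjusted p was 0.266.

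Under 2DG and GS alone, 55 of 56 member values on 8 arrays lay above their own control, and HERPUD1 and SEL1L moved most. HERPUD1 stood at 2896, 2630 and 2245 on the 3 arrays of HT-1080 under 2DG, against 522, 776 and 744 on their controls. Under GS it stood at 2744 and 2868 in HT-1080, against 589 and 1122. In HT-29 under GS it reached 4128, 5807 and 3571, against 649, 463 and 909. Every stressed array was thus above every control of its line. SEL1L stood at 1414, 1158 and 874 under 2DG and at 1550 and 1326 under GS in HT-1080, where the 6 controls ran only from 260 to 303. In HT-29 it stood at 2157, 2057 and 529, the last being the 14 h array, against 317, 282 and 265.

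The fit called both genes higher in all 3 comparisons. Under 2DG HERPUD1 rose by 1.93 (SE 0.269, 3.82-fold, limma adjusted p = 0.00265) and SEL1L by 1.99 (SE 0.296, 3.96-fold, adjusted p = 0.00371). OS9 rose by 0.84, EDEM2 by 0.68 and DERL1 by 0.52, while EDEM1 (0.73, adjusted p = 0.0812) and DERL2 (0.68, adjusted p = 0.0665) missed the threshold. That made 5 of 7 members higher and none lower, where 4.9% of all genes were higher, and the median difference was 0.73 for members and 0.02 for all genes. Without 2DG replicate 1 or its control (HT-1080 control replicate 2) none passed, HERPUD1 then at an adjusted p of 0.0509 and SEL1L at 0.0608. Without 2DG replicate 2 or 3, or control replicate 4 or 5, 2 passed, and without GS replicate 1 or 2, or control replicate 1 or 6, 3 passed. Calls over all genes moved too, from 947 to 98 without 2DG replicate 1 and to 84 and 209 without replicates 2 and 3. All 7 members passed without HT-29 GS replicate 1 or 3, or its control, with 1201 and 1860 of 11456 genes called without the GS arrays. The DERL1 call rests on 1 of its probe sets, as described further on.

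In HT-1080 GS raised SEL1L by 2.31 (SE 0.362, 4.95-fold, limma adjusted p = 0.00475), HERPUD1 by 1.78 (SE 0.329) and OS9 by 0.93 (SE 0.213). These 3 of 7 compare with 4.36% of all genes higher, and the medians were 0.93 and -0.02. Without either GS array, or control replicate 1 or 6, none of the 7 passed, and without HT-29 GS replicate 3 or its control all 7 did. Calls over all genes went from 1083 to 20 and 45 without GS replicates 1 and 2, and to 1906 without that HT-29 array. In HT-29, 6 of 7 rose under GS, where 11.6% of genes did: HERPUD1 by 2.75 (SE 0.269, 6.74-fold, limma adjusted p = 0.000252), SEL1L by 2.19 (SE 0.296), EDEM1 by 1.40 (SE 0.241), DERL2 by 1.26 (SE 0.208), OS9 by 0.80 (SE 0.174) and EDEM2 by 0.70 (SE 0.19). The median was 1.26 for members and -0.04 for all genes. The 14 h array held the lowest change of the 3 for every one of the 7, EDEM1 for example at 2.17, 1.45 and 0.57. Without HT-29 GS replicate 1 or its control EDEM2 (adjusted p = 0.157) and OS9 (0.066) did not pass, without replicate 2 or its control EDEM2 did not (0.0818), and without replicate 3 or its control DERL1 did (0.0136). All genes called went from 3104 to 1193, 1536 and 4184 without GS replicates 1, 2 and 3. On HT-29 arrays alone 4 of 7 passed, among 1171 genes called. EDEM2 (limma adjusted p = 0.106) and OS9 (0.0517) then did not pass. For the difference between the lines under GS, 0 of 7 passed, with 0.166% of genes higher in HT-1080 and 0.402% lower, and 1 member was under an unadjusted p of 0.05. Between GS and 2DG in HT-1080, 0 of 7 passed, and 0.00873% of genes did in each direction.

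**Figure D1:**
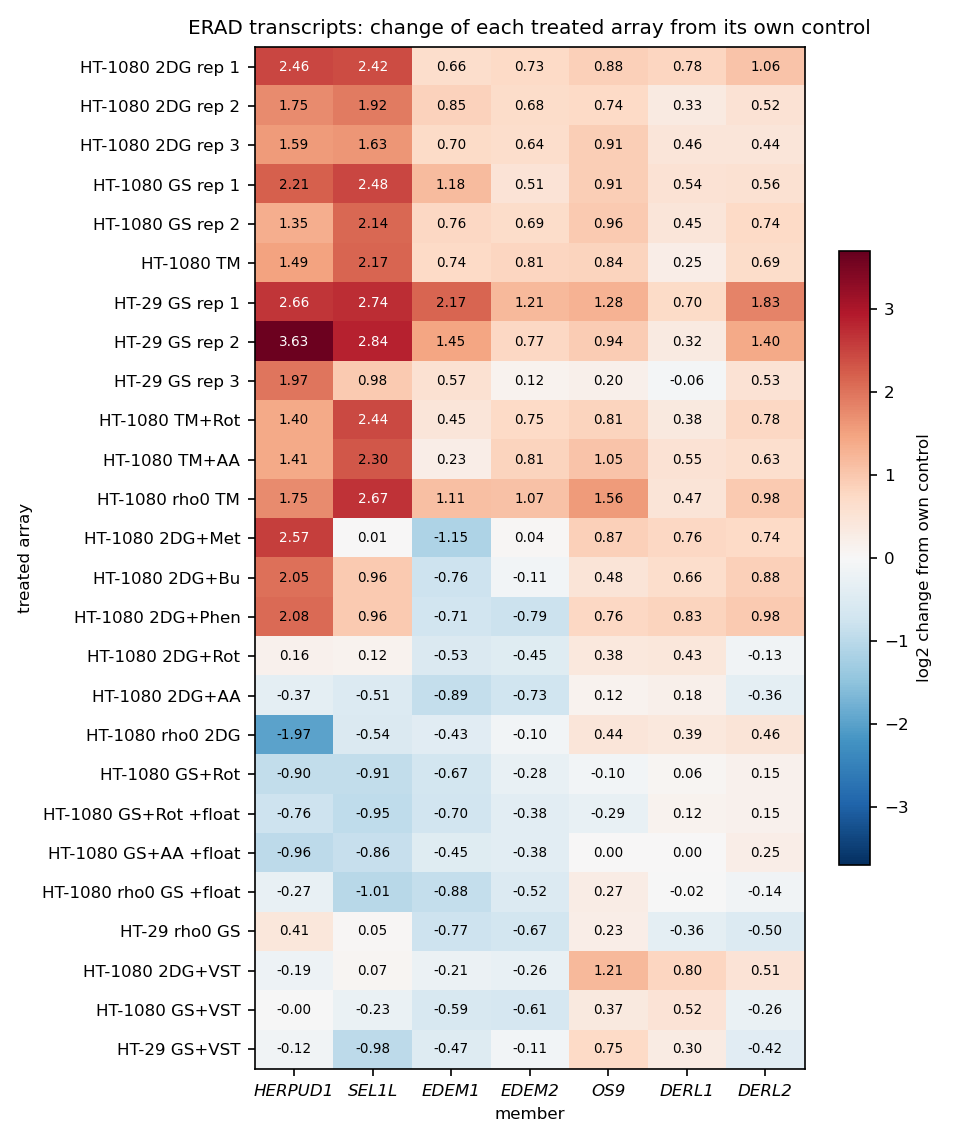
Log2 change from its own control (colour and printed value) for the 7 measured members, in columns, on each of the 26 treated arrays, in rows. HERPUD1 and SEL1L are above 0 on all 8 arrays with 2DG or GS alone and all 4 TM arrays, while EDEM1 is below 0 on the 14 that combine either stress with a compound or with rho0 cells.

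Tunicamycin gave changes of like size on its 1 array, where HERPUD1 stood at 3156 against 1122 and SEL1L at 1355 against 297. The fitted differences were 1.70 (SE 0.435, 95% interval 0.75 to 2.66) and 2.25 (SE 0.479, 1.20 to 3.30), with limma adjusted p of 0.342 and 0.225. No gene of 11456 was called with TM, 0% in either direction, although 686 genes, 4 members among them, were under an unadjusted p of 0.05. Without the block for the control array HERPUD1 (2.09, adjusted p = 0.00496) and SEL1L (2.24, adjusted p = 0.0295) passed. Fitted on HT-1080 arrays alone both and OS9 passed, and without HT-29 GS replicate 3 or its control 1 member passed. The genes called in all were 54 without the block, 187 on HT-1080 arrays alone and 78 without that HT-29 array. The medians were 0.82 for members and -0.003 for all genes.

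The probe set shared by SYVN1 and MIR6751 moved in the same direction as the ligase partners. Its fitted difference was 1.13 under 2DG (SE 0.192, limma adjusted p = 0.00639), 0.87 under GS in HT-1080 (adjusted p = 0.0397) and 1.08 in HT-29 (adjusted p = 0.00319), all called higher. Under TM it was 0.85 (adjusted p = 0.664). The probe set cannot show which of the 2 genes gave the signal.

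Of 60 other listed genes of ER-associated degradation, 53 were measured. Under 2DG 7 rose and 1 fell, where 4.9% of all genes rose and 3.37% fell. They were led by the ubiquitin-conjugating enzyme UBE2J1 (1.13), the protease SPPL2A (0.99), the selenoprotein SELENOS, a partner of VCP (0.92), and the signal peptide peptidase HM13 (0.87). Under GS in HT-1080 4 rose and 2 fell, against 4.36% and 5.1% of all genes, among them the ligase RNF185 (1.07), SELENOS (1.05), UBXN8 (1.03) and the mannosidase MAN1A1, which fell by 1.13. Under GS in HT-29 10 rose and 6 fell, against 11.6% and 15.5% of all genes, so the 6 that fell were no larger a share than over all genes. The rises were led by the lectin ERLEC1 (1.74), SELENOK (1.58), UBE2J1 (1.25) and SELENOS (1.22). With TM none passed. The median difference of the 53 was 0.13, 0.04, 0.07 and 0.08 in these 4 comparisons.

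With VST HERPUD1 and SEL1L were near or below control level under both stresses. HERPUD1 stood at 709 with 2DG and VST, at 587 with GS and VST in HT-1080 and at 596 in HT-29, against controls of 809, 589 and 649. SEL1L stood at 303, 231 and 158, against 289, 273 and 317. Each VST array lay below all arrays of the same stress alone for both genes. With 1 VST array a group this placing is not a test, and the share of all genes so placed was not counted. Added to GS in HT-29, VST lowered SEL1L by -3.45 (SE 0.468, limma adjusted p = 0.000402), HERPUD1 by -2.83 (SE 0.425), EDEM1 by -2.25 (SE 0.381), DERL2 by -1.97 (SE 0.329) and EDEM2 by -1.07 (SE 0.301). These 5 of 7 compare with 18.1% of genes lower. Added to GS in HT-1080 it lowered SEL1L by -2.63, HERPUD1 by -2.0, EDEM1 by -1.66 and EDEM2 by -1.17, 4 of 7 against 9.47% of genes. Added to 2DG it lowered HERPUD1 alone, by -2.12 (SE 0.538, limma adjusted p = 0.0369), 1 of 7 against 5.26%, with SEL1L at -1.92 (adjusted p = 0.0702).

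OS9 and DERL1, the latter read from its brightest probe set, were called in none of the comparisons with VST. Both were called for GS in HT-29 with the deposited scaling (adjusted p = 0.0488 and 0.0416), OS9 for GS in HT-1080 with that scaling (0.0272), on HT-1080 arrays alone (0.0169) and without HT-29 GS replicate 3 (0.0436). DERL1 was also called for GS in HT-29 with the mean of its probe sets (0.0191), and its other probe sets fell there, as described further on. Against its own control OS9 was 1.21 higher with 2DG and VST, above all 3 arrays of 2DG alone (0.88, 0.74 and 0.91), and its fitted difference was 0.36 (adjusted p = 0.563). With GS the fitted differences for OS9 were -0.55 in HT-1080 (adjusted p = 0.216) and -0.29 in HT-29 (adjusted p = 0.456). The members' medians were -0.94, -1.17 and -1.97 for 2DG, GS in HT-1080 and GS in HT-29, and those of all genes -0.08, -0.05 and -0.03. Without GS replicate 1 none of the members passed for GS in HT-1080 (HERPUD1 adjusted p = 0.33, SEL1L 0.173) and all genes called went from 1627 to 72. The EDEM2 call there was also lost without any one of the 3 2DG arrays, GS replicate 2 or control replicates 1, 2, 4, 5 and 6 (adjusted p from 0.0503 to 0.0797), with quantile normalization (0.0611) and without the intensity trend (0.0569), where HERPUD1 was lost too (0.0516). Without HT-29 GS replicate 1 EDEM2 did not pass in HT-29 (0.287), and the 2DG call of HERPUD1 was lost without any one of the 3 2DG arrays, the 2 HT-1080 GS arrays or control replicates 1, 2, 4, 5 and 6. Without HT-29 GS replicate 2 or its control 2 passed with 2DG, and without replicate 3 or its control 3 passed, while all genes called went from 857 to 1287 and 1668 without these GS arrays. Without replicate 3 or its control 6 passed with GS in HT-1080, among 2501 genes called without the GS array. With the deposited scaling the counts were 3, 6 and 7, and the share of called genes that were higher went from 29.6%, 33.3% and 38.8% to 6.45%, 3.24% and 6.49%.

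Of the 53 other genes, 7, 13 and 17 fell with VST in these comparisons and 1, 3 and 6 rose. Of all genes 5.26%, 9.47% and 18.1% fell and 2.22%, 4.73% and 11.5% rose, so the rises were close to the share over all genes. RNF145, a ubiquitin ligase, had the largest fall of the 53 in all 3, at -2.54, -2.47 and -5.81. EDEM3, another of the EDEM mannosidases, was at -1.53, -1.58 and -3.38, also called in each.

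In HT-1080 cells without mitochondrial DNA, HERPUD1 and SEL1L were below their control under 2DG and GS and above it under TM. In rho0 HT-1080 HERPUD1 stood at 156 under 2DG, the lowest of all 38 arrays, against 627 on its control. Under GS it stood at 601 and under TM at 2462, against 726. SEL1L stood at 206 against 301 under 2DG, at 110 against 227 under GS and at 1479 against 227 under TM. The change in rho0 cells thus lay below 0 for 2DG and GS, and for TM was 1.75 for HERPUD1 and 2.67 for SEL1L, next to 1.49 and 2.17 in parental cells.

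Against the parental change, the 2DG change in rho0 cells was lower by -3.90 for HERPUD1 (SE 0.538, limma adjusted p = 0.00254) and by -2.53 for SEL1L (SE 0.592, adjusted p = 0.0265), 2 of 7 where 5.25% of genes were lower. For GS it was lower for SEL1L, by -3.32 (SE 0.628, limma adjusted p = 0.0316), 1 of 7 where 1.03% were, with HERPUD1 at -2.05 (adjusted p = 0.0873) and EDEM1 at -1.85 (adjusted p = 0.0849). For TM none of 7 passed and 0% of genes did, 173 genes and no member being under an unadjusted p of 0.05. The 95% interval of that difference ran from -1.34 to 1.45 for HERPUD1 and from -1.11 to 1.96 for SEL1L. With 1 array a group, differences within these bounds remain possible, and the bounds are not a limit of detection. The rho0 GS array held floating cells, which its parental GS arrays did not, and the part of this was not tested. The SEL1L call for 2DG was lost without 2DG replicate 1 or 2 or control replicate 2 or 4. The SEL1L call for GS was lost without any one of the 3 2DG arrays, the 2 GS arrays or control replicates 1, 2, 4, 5 and 6, and with the mean of all probe sets (-2.63, adjusted p = 0.0501), where DERL2 passed instead (-1.93, adjusted p = 0.0172). Without an HT-29 GS array or its control 2 to 4 members passed, while all genes called went from 173 to between 281 and 871. With the deposited scaling 2 and 3 members passed, and the share of called genes that were higher went from 25.2% to 10.4% for 2DG and from 31.8% to 6.21% for GS.

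In HT-29 the rho0 GS array stood at 1431 for HERPUD1 and 394 for SEL1L, against 1074 and 380 on its control. At the same 14 h the parental array had changed by 1.97 for HERPUD1, 0.98 for SEL1L and 0.57 for EDEM1, and the rho0 array by 0.41, 0.05 and -0.77. Against all 3 parental arrays the differences were -2.34 for HERPUD1 (SE 0.538, limma adjusted p = 0.0913), -2.17 for EDEM1 (SE 0.482, adjusted p = 0.0832) and -2.14 for SEL1L (SE 0.592, adjusted p = 0.12). None of 7 passed, where 0.0175% of genes were lower, and 6 members were under an unadjusted p of 0.05. Without HT-29 GS replicate 3 or its control, which leaves only 18 h parental arrays, all 7 passed, while all genes called went from 10 to 1509 and 1502.

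Across the 53 other genes, the rho0 difference was lower for 9 and higher for 2 under 2DG and lower for 3 under GS. Over all genes 5.25% were lower and 1.77% higher under 2DG and 1.03% lower under GS. Under 2DG the first were HERPUD2 (-1.67), a homologue of HERPUD1, and UBE2J1 (-1.64), and the deubiquitinase YOD1 was higher (1.41). Under GS they were RNF145 (-1.77), EDEM3 (-1.74) and VCP (-1.52), the ATPase that pulls proteins from the membrane. The shared SYVN1 probe set differed by -1.87 under 2DG (SE 0.383, limma adjusted p = 0.0145) and by -1.23 under GS (adjusted p = 0.13).

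**Figure D2:**
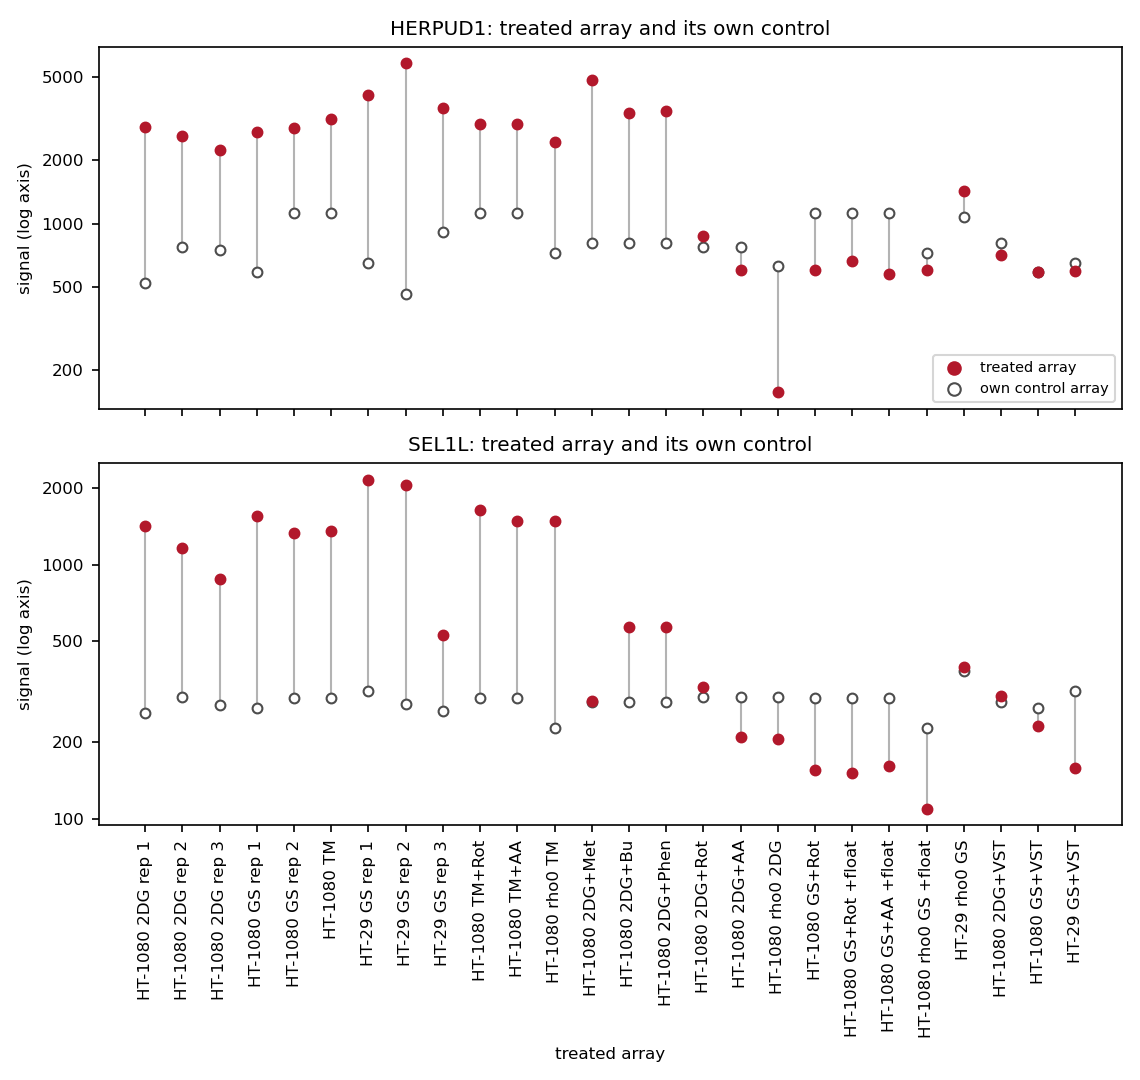
Scaled signal of HERPUD1 and SEL1L (log axis) on each treated array and on its own control, joined by a line. The rho0 2DG array for HERPUD1, at 156, lies below every control. The 3 biguanide arrays for HERPUD1, at 3358 to 4826, lie above all 3 arrays of 2DG alone. Their control, at 809, also lies above the controls of those 3 arrays.

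With 2DG and an inhibitor of respiration, HERPUD1 differed by compound. HERPUD1 stood at 4826 with Met, 3358 with Bu and 3448 with Phen, each above the 2245 to 2896 of 2DG alone. As change from own control, Bu (2.05) and Phen (2.08) lay within the 1.59 to 2.46 of 2DG alone, and Met (2.57) lay above it. With Rot HERPUD1 stood at 870 and with AA at 598, close to their shared control of 776. EDEM1 by contrast was below its control with all 5, at 95, 127, 131, 153 and 118 in that order, against 218 for the biguanides and 224 for Rot and AA. SEL1L lay in between, at 291 with Met, 569 with Bu, nearly the same with Phen, 331 with Rot and 211 with AA, against 874 to 1414 for 2DG alone.

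Fitted as 1 class of 5 compounds, EDEM1 fell by 1.54 (SE 0.254, limma adjusted p = 0.000207), SEL1L by 1.88 (SE 0.356), EDEM2 by 1.17 (SE 0.241) and HERPUD1 by 1.20 (SE 0.414, adjusted p = 0.0309), 4 of 7 where 21.7% of genes were lower. The HERPUD1 value averages unlike compounds: with the biguanides alone it was 0.30 (SE 0.426, adjusted p = 0.667), and with Rot or AA it was -1.95 (SE 0.326, adjusted p = 0.000588). The class call for HERPUD1 was lost without the Rot array (adjusted p = 0.0761), the AA array (0.147), 2DG replicate 1 or control replicate 2 (0.0751 and 0.075), or 2DG replicate 2 (0.316), and without the block for the control array (-0.39, adjusted p = 0.511). With the deposited scaling 6 members passed, among 4958 genes called in place of 3948. Of the called genes 7.4% were higher in place of 36.9%.

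With the biguanides 1 of 7 members passed, EDEM1 at -1.61 (SE 0.39, limma adjusted p = 0.00826), where 13.4% of genes were lower, a count close to the share over all genes. SEL1L was at -1.34 (adjusted p = 0.0773). With Rot or AA 5 of 7 passed, where 15.8% were lower: SEL1L at -2.14, HERPUD1 at -1.95, EDEM1 at -1.5, EDEM2 at -1.27 and DERL2 at -0.84. Without 2DG replicate 2 only HERPUD1 passed, among 280 genes called in place of 2911, and the DERL2 call was also lost without the AA array (adjusted p = 0.106) or control replicate 4 (0.0706). The direct test of biguanides against Rot or AA, at doses that were not matched, called 0 of 7 members and 2 of 11456 genes, 0.0175%. HERPUD1 had the largest difference of the 7, 2.25 (SE 0.477, 95% interval 1.25 to 3.25, limma adjusted p = 0.155), followed by DERL2 at 1.03 (interval 0.29 to 1.77, adjusted p = 0.627). EDEM1 differed by -0.10 (interval -1.02 to 0.81). Without the block both HERPUD1 (2.40, adjusted p = 1.03e-05) and DERL2 (1.15, adjusted p = 0.0303) passed, and on HT-1080 arrays alone HERPUD1 did (adjusted p = 0.0378). These settings called 209 and 14 genes in all. The 3 biguanide arrays share 1 control, and the Rot and AA arrays share another with 2DG replicate 2. Without HT-29 GS replicate 3 or its control 3 members passed with the biguanides and 1 in the direct test, among 2631 and 11 genes called without the GS array, and without the Met array 2 passed with the biguanides. With the deposited scaling 3 members passed with the biguanides and 7 with Rot or AA. All genes called went from 2323 to 2998 and from 2911 to 4078. The share of called genes that were higher went from 34.1% to 8.24% and from 37.7% to 5.76%.

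Under GS only Rot and AA were tested, and HERPUD1 and SEL1L were below their control with both. HERPUD1 stood at 598 with Rot, 660 with Rot and floating cells and 574 with AA and floating cells, all below the shared control of 1122 and below both GS arrays (2744 and 2868). SEL1L stood at 155, 151 and 161, against 297 on the control. Rot with and without floating cells thus gave nearly the same signal for both genes. The fit joined the Rot array without floating cells and the AA array with them, 2 arrays, and left the Rot array with floating cells as a group of its own. The fitted differences from GS alone were -3.11 for SEL1L (SE 0.422, limma adjusted p = 7.98e-05), -2.49 for HERPUD1 (SE 0.491), -1.42 for EDEM1 (SE 0.302), -1.0 for OS9 (SE 0.232) and -0.97 for EDEM2 (SE 0.286), 5 of 7 where 13.5% of genes were lower. With the Rot array that held floating cells in place of the other, 5 members passed again, HERPUD1 at -2.42 and SEL1L at -3.13. Without GS replicate 2, the GS array that shares their control, only SEL1L passed, among 228 genes called in place of 2821, HERPUD1 then being at -3.14 with an adjusted p of 0.056, and the EDEM2 call was also lost without the GS with Rot array (0.0521) or the GS with AA array (0.0859). With the deposited scaling all 7 passed, among 3766 genes called in place of 2821. Of the called genes 15.4% were higher in place of 45.2%.

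With TM and an inhibitor, HERPUD1 and SEL1L were close to TM alone. HERPUD1 stood at 2973 with Rot and 2982 with AA, next to 3156, and SEL1L at 1639 and 1484, next to 1355. None of 7 passed, where 0.131% of genes were higher and 0.428% lower, and no member was under an unadjusted p of 0.05. The 95% interval of the difference was -1.21 to 1.04 for HERPUD1, -0.77 to 1.17 for SEL1L and -1.09 to 0.29 for EDEM1. The direct test of the inhibitor effect under 2DG against that under TM called SEL1L, at -2.08 (SE 0.583, limma adjusted p = 0.0481), 1 of 7 where 2.91% of genes were lower. EDEM2 was at -1.15 (adjusted p = 0.0956), EDEM1 at -1.14 (adjusted p = 0.115) and HERPUD1 at -1.11 (adjusted p = 0.363). This test set unlike compounds against each other: biguanides, Rot and AA under 2DG, but only Rot and AA under TM. Under 2DG HERPUD1 was at 0.30 with the biguanides and lower with Rot or AA, as given above. Its value here averages these, so it cannot show whether Rot and AA act alike on HERPUD1 under 2DG and TM. The difference with Rot and AA alone under both stresses was not tested. The SEL1L call was lost without any one of 16 HT-1080 arrays: the 3 2DG arrays, the 2 GS arrays, 2DG with AA, GS with Rot, GS with AA, both TM arrays with an inhibitor, and all 6 controls. Its adjusted p was then at most 0.163, with 35 to 515 genes called in place of 517. There were 2 members called, among 825 and 821 genes, without HT-29 GS replicate 3 or its control. With the deposited scaling 3 members passed, and 5.79% of the called genes were higher in place of 35.6%. For TM with an inhibitor that share went from 23.4% to 13.1%.

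**Figure D3:**
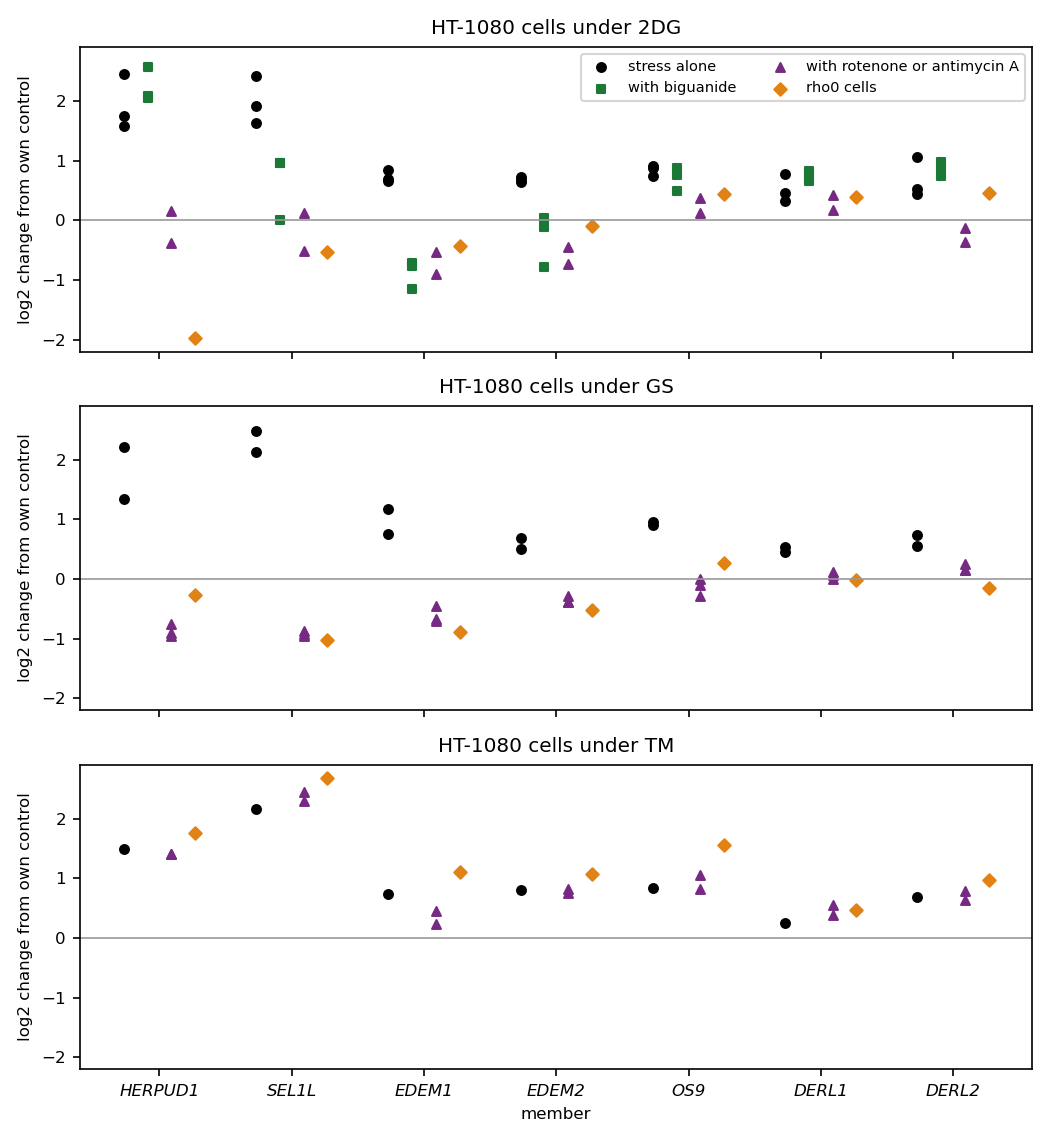
Log2 change from its own control of the 7 members in HT-1080, in panels for 2DG, GS and TM. Arrays are those with the stress alone, with an inhibitor of respiration and in rho0 cells. Under TM all 28 values on 4 arrays lie above 0, from 0.23 to 2.67. Under 2DG and GS EDEM1 lies below 0 on every array with an inhibitor or without mitochondrial DNA.

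Among the 53 other genes, inhibitors lowered 18 and raised 6 under 2DG and lowered 13 and raised 3 under GS, and none passed under TM. Over all genes 21.7% were lower and 12.7% higher under 2DG, and 13.5% lower and 11.1% higher under GS, so the rises were no larger a share than over all genes. Under 2DG the largest falls were RNF145 (-2.87), EDEM3 (-1.91), HERPUD2 (-1.69) and SPPL2A (-1.59). Under GS they were RNF185 (-1.70), ERLIN2 (-1.61), a membrane scaffold, ERLEC1 (-1.48) and HERPUD2 (-1.42). HERPUD2 also fell with the biguanides, by 2.06, where HERPUD1 was at 0.30. By role, 4 of 5 genes of glycan trimming and recognition fell under 2DG with an inhibitor, 6 of 14 ligases and their cofactors fell and 2 rose, 5 of 14 membrane partners fell, and 3 of 20 genes of extraction and delivery fell while 4 rose, to be read against the 21.7% and 12.7% of all genes. The falls in extraction and delivery were a smaller share than over all genes. The members' median was -1.17 under 2DG and -1.0 under GS, that of the 53 genes -0.29 and -0.14, and that of all genes -0.12 and -0.03. The shared SYVN1 probe set fell by 1.07 under 2DG (SE 0.224, limma adjusted p = 0.0013) and by 0.94 under GS (SE 0.265, adjusted p = 0.0148), and was at 0.10 under TM (adjusted p = 0.94).

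DERL1 depended on the probe set read. The values above come from the probe set with the highest mean, 219402_s_at, while 222543_at and 218172_s_at also reached the filter on all 38 arrays. Over the 26 treated arrays, which share controls, the changes of the last 2 correlated at r = 0.948, and those of 219402_s_at with them at 0.0884 and 0.0949. With 2DG and Met 218172_s_at stood at 80.6 and 222543_at at 152, which were -1.98 and -1.73 from the control, while 219402_s_at stood at 1289, 0.76 above it. With GS and VST in HT-29 both 218172_s_at (-2.27, limma adjusted p = 0.00013) and 222543_at (-2.26, adjusted p = 0.000118) fell relative to GS alone. The value of 219402_s_at there was -0.21 (adjusted p = 0.533). For the rho0 difference under GS they were lower by -1.98 and -1.83, for the inhibitors under GS by -1.77 and -1.23, all called, and 219402_s_at was at -0.52 and -0.44. Under 2DG alone the order was the opposite, 219402_s_at at 0.52 and called, the others at 0.12 and 0.07 and not called. The 3 probe sets gave the same difference between the lines, 1.85, 1.90 and 1.79 higher in HT-29 controls.

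**Figure D4:**
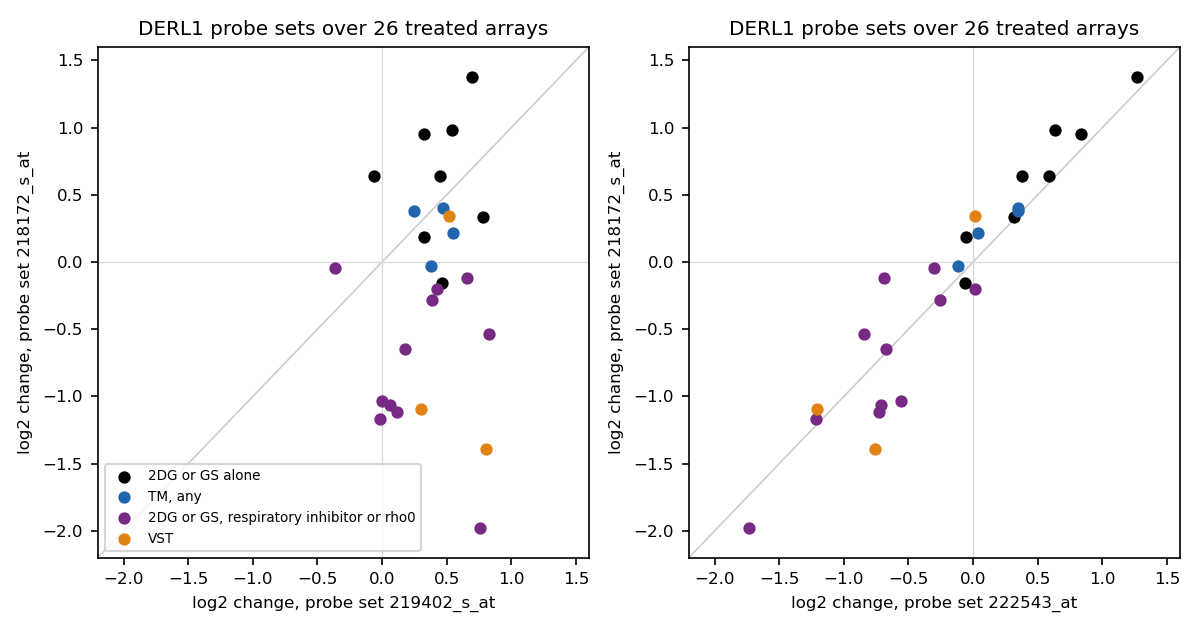
Log2 change from its own control of the DERL1 probe set 218172_s_at against that of 219402_s_at (left) and of 222543_at (right), 1 point per treated array, 26 arrays, with the line of equality. Values of 219402_s_at stay between -0.36 and 0.83, while those of 218172_s_at reach down to -1.98 and up to 1.37.

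The other members with several probe sets differed less between them. For SEL1L, 3 of the 4 probe sets correlated at 0.955 to 0.968, and the fourth, dim on most arrays, at 0.643 to 0.719. The OS9 pair correlated at 0.653 and the DERL2 pair at 0.494. The dimmer DERL2 probe set, 226719_at, fell where the one used was not called: it was at -2.68 with VST and GS in HT-1080 (limma adjusted p = 0.00139), the other at -0.86, and at -1.37 with the inhibitors and 2DG (adjusted p = 0.0165), the other at -0.50.

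Across the 26 treated arrays HERPUD1 lay above its control on 17, SEL1L on 18, EDEM1 on 12, EDEM2 on 13, OS9 on 24, DERL2 on 20 and DERL1 on 23. The members' changes were alike to unequal degrees, with r = 0.883 for EDEM1 and EDEM2, 0.866 for SEL1L and EDEM2, 0.817 for HERPUD1 and SEL1L and 0.221 for EDEM1 and DERL1. The gene most like HERPUD1 was UBE2J1 (r = 0.91), and SEL1L was most like HYOU1 (r = 0.959), a chaperone of the endoplasmic reticulum. EDEM1 was most like ERLEC1 (r = 0.948), EDEM2 like the tryptophanyl-tRNA synthetase WARS1 (r = 0.905) and OS9 like the coat protein COPA (r = 0.862). DERL2 was most like SLC31A1 (r = 0.85) and DERL1 like APLP2 (r = 0.838). These are descriptions over arrays that share controls and stresses.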

How the data were processed

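Total RNA of 38 cultures was hybridised to Affymetrix arrays. The deposited values are MAS5 signal intensities, per the submitters' processing notes and the labels; the authors' scaling target is not given in the sources used here. Of 54675 probe sets, 41097 carried 1 gene symbol, 1801 several and 11777 none. Probe sets with several symbols were not named, and 232 with a missing value were left out. Intensities were scaled to 1 common trimmed mean per array (2% trimmed), 5% of it was added, and log2 was taken. Probe sets reaching 40% of it on at least 2 arrays were kept, and the one with the highest mean stood for its gene, which gave 11456 genes.

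Each difference was tested by limma 3.58.1 under R 4.3.3 (intensity trend, Benjamini-Hochberg over all genes, threshold 0.05). The group fit had a coefficient per treated group and a block for the control array that each description names, which is how arrays were paired (5 residual degrees of freedom). Further fits joined the inhibitors of respiration under each stress (11), separated biguanides from rotenone and antimycin A (10) or used the 12 controls alone (8). The number of arrays limits the precision, and the labels do not say that replicates were independent cultures, so p-values measure the spread between these arrays. In such bulk samples fewer expressing cells and less RNA per cell cannot be told apart. The code was tested on simulated data.

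The 9 genes, the other lists and the tests were chosen with earlier results of these data known. Named in the text are the 9 genes in every comparison, up to 4 other listed genes per comparison with the largest change past the threshold, and the gene most like each member. Symbols and promoters are those of RefSeq GRCh38.p14. Alternatives tried were other offsets, no filter, the deposited scaling, quantile normalization, the mean of a gene's probe sets, no intensity trend, no block, arrays of 1 line only and each array left out.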

Additional observations from a re-analysis of the deposited data

Results flagged for a closer look

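EDEM1 in HT-1080 control replicate 1 had a signal of 189, set apart from the other 5 HT-1080 controls (lowest of them 218). It was the 1 array so placed among 7 members tested in this group of 6 arrays, where chance gives about 1 in 20 groups.

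In 4 results the effect of a stress or an inhibitor differed between groups by the limma test of the difference itself. The 2DG change in HT-1080 rho0 cells was below that in parental cells by -3.90 for HERPUD1 and by -2.53 for SEL1L. The GS change of SEL1L was lower in rho0 cells by -3.32. The inhibitor effect on SEL1L under 2DG was below that under TM by -2.08, where the biguanides were part of the 2DG side only. The first 3 rest on 1 rho0 array each and the last on 3 TM arrays, and their calls without single arrays are given with the results.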

How the results depend on the processing

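The alternatives other than leaving out single arrays gave 1596 values of single members (7 members, each comparison and setting). They include arrays of the same line only, which drops the other line, and the biguanides or rotenone and antimycin A fitted apart. Of these values, 1490 kept their side of the threshold and, where called, their direction, 36 lost the call, 69 gained it and 1 reversed. The reversal was HERPUD1 with inhibitors under 2DG, which was 0.30 with the biguanides only; there 1 member passed in place of 4. With single arrays left out, 5785 of 5985 values kept both, and none reversed. The cause of the changes was not tested.

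Moves in the number of members called included the following. For 2DG in HT-1080, 5 became 3 with an offset of 1%, without the filter or with the deposited scaling, and 2 without the intensity trend. With the mean of probe sets it became 4, with quantile normalization 6 and on arrays of the same line only 7. In that order all genes called went from 947 to 735, 693, 834, 504, 952, 1194 and 2752. For VST added to 2DG, 1 became 0 with an offset of 1%, without the filter or without the trend, 2 with the mean of probe sets, 3 with the deposited scaling and 4 on arrays of the same line only. In that order all genes called went from 857 to 729, 536, 551, 719, 1379 and 2571. For the inhibitor effect under 2DG against TM, 1 became 0 with an offset of 1%, without the filter, with the mean of probe sets or without the trend, 3 with the deposited scaling and 2 on arrays of the same line only. In that order all genes called went from 517 to 401, 273, 418, 155, 985 and 924. For rho0 against parental HT-1080 under GS, 1 became 3 with the deposited scaling, 0 without the trend and 5 on arrays of the same line only. In that order all genes called went from 173 to 499, 4 and 1668. With the mean of probe sets the number of members stayed at 1, with DERL2 in place of SEL1L. Without the trend VST added to GS in HT-1080 had 2 in place of 4, among 965 genes called in place of 1627. Rho0 under 2DG had 1 in place of 2 without the trend, among 584 genes in place of 804, and 4 on arrays of the same line only, among 2275. On arrays of the same line only GS in HT-1080 had 7, TM 3, the biguanides 3, the biguanides against rotenone or antimycin A 1 and rho0 HT-29 controls 0. With that setting GS in HT-29 had 4 in place of 6, without EDEM2 and OS9. VST added to GS in HT-29 then had 4 in place of 5, without EDEM2. All genes called moved with them, from 1083 to 2787 for GS in HT-1080, from 0 to 187 for TM, from 2323 to 2792 and from 2 to 14 for the biguanides and their difference, and from 913 to 10 for rho0 HT-29 controls. For GS in HT-29 they went from 3104 to 1171, and for VST added to it from 3385 to 1606. The biguanides also had 3 with the deposited scaling, rho0 HT-1080 controls 1 with quantile normalization and rho0 HT-29 under GS 1 with the mean of probe sets. In that order all genes called went from 2323 to 2998, from 1500 to 1626 and from 10 to 11.

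Without the replicate block, arrays were not paired to their named control. The count was then 2 for TM, 3 for VST added to 2DG and 3 for rho0 under GS in HT-1080. It was 3 for the biguanides and 2 for the biguanides against rotenone or antimycin A. For the inhibitor effect under 2DG against TM it was 0, where SEL1L was at -1.81. All genes called went from 2323 to 4522 for the biguanides and from 2 to 209 for their difference. They also rose for TM, VST added to 2DG and rho0 under GS, and fell for the inhibitor effect.

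With each array left out in turn the count ran from 0 to 7 for 2DG, from 0 to 7 for GS in HT-1080, from 4 to 7 for GS in HT-29, from 0 to 1 for TM and from 0 to 2 for GS between the lines. It ran from 0 to 3, 0 to 6 and 4 to 5 for VST under 2DG, GS in HT-1080 and GS in HT-29, and from 1 to 3, 0 to 4 and 0 to 7 for rho0 cells in the same order. For the inhibitors it ran from 3 to 5 under 2DG, from 1 to 5 under GS and from 0 to 2 for 2DG against TM, for the biguanides from 1 to 3, for rotenone or antimycin A from 1 to 6 and for their difference from 0 to 1. In controls it ran from 0 to 1 for rho0 HT-1080 and from 3 to 4 between the lines, and was 1 throughout for rho0 HT-29. All genes called moved as well, for example from 81 to 1860 for 2DG and from 1189 to 4184 for GS in HT-29. With the inhibitors under 2DG they ran from 1892 to 4198. DERL3 and the second HERPUD1 probe set were too dim to measure.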
